A study of Drosophila melanogaster with 14 samples.

Results

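Transcript levels in 10 mRNA-Seq libraries of *sall* mutant *Drosophila melanogaster* embryos were compared with those in 4 wild type (WT) libraries, which together are all 14 libraries of the series, with embryonic stage as a covariate. The mutant libraries were chosen by their titles, as all those of homozygous (Ho, 6 libraries) and of heterozygous (He, 4 libraries) embryos. The question was which genes stood higher or lower in both mutant genotypes alike, at either dose of *sall*. Ho embryos were homozygous for the deficiency Df(2L)32FP-5 and were taken, for their lack of GFP, from a Df(2L)32FP-5/CyO-GFP stock. He embryos were Df(2L)32FP-5/+ and were the progeny without GFP of females of that stock and *white*- males. The WT stock was Oregon R. The deficiency removes *salm* and *salr*, and the mutant stock had been back-crossed to the balancer stock before use. All mutant embryos thus had mothers of the deficiency stock, lacked at least 1 copy of *sall* and shared no stock with the WT embryos, so that a missing *sall* copy, the strain background and the mother's stock cannot be told apart here. Each library came from untreated pools of 50 whole embryos, with 3 Ho, 2 He and 2 WT libraries at each of stages 16 and 17. The stage was taken from the titles, because the stage field of the labels reads stage 16 (13 to 14 hours) for all libraries, also for the 7 titled as stage 17. In whole embryos, fewer cells of a type and less RNA per cell cannot be told apart.

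*salm* and *salr* encode zinc finger transcription factors of the Spalt family, which act in the embryonic nervous system, the tracheae and the oenocytes, the cells that make cuticular hydrocarbons. Genes that answer to their loss may answer to the loss of a single copy or only to the loss of both. Fly stocks kept apart also differ from each other in sequence, and genes of detoxification, immunity and chemosensation belong to families known to vary among strains.

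The mutant libraries held between 4731991 and 22492109 reads on genes and the WT libraries between 12877872 and 23167535. Levels are given as CPM, the reads of a gene per 1000000 reads on genes, and differences on the deposited log2-like scale, where 0 reads have the value -0.04. Up to 3 reads may lie behind a count of 0, or 0.634 CPM in the shallowest library, Ho16a (homozygous, stage 16, experiment a), and 0.129 CPM in the deepest, WT17c. This covers counting error only. Ho16a and Ho16c scattered most around the mean of their condition, with an SD of 0.98 and 1.2 on the log2 scale over genes, against 0.37 to 0.67 in the other 12 libraries. With 2 libraries per WT or He condition, both lie equally far from their mean, so their SDs are not on a par with those of Ho. The other Ho libraries, also of conditions with 3 libraries, had 0.59 to 0.67. The libraries of WT and He other than c group technical replicates of experiments a and b. In the check of the deleted genes, *salm* had 0 to 5.18 CPM and *salr* 0 to 4.02 CPM in Ho libraries, and every He and WT library had at least 46.0 CPM of *salm* and 35.3 CPM of *salr*.

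Among 11584 genes tested, 35 differed between mutant and WT embryos (0.302% of the genes, limma with stage as a covariate, Benjamini-Hochberg adjusted p under 0.05). Of these, 19 were higher (0.164%) and 16 lower (0.138%) in the mutants. At an unadjusted p under 0.05 there were 310 higher (2.68%) and 430 lower (3.71%). The differences among the 35 ranged from 1.27 to 5.22 in size, with a median of 2.38, where the median size over all genes was 0.27. On the deposited scale, every mutant library lay beyond every WT library of its own stage for 34 of the 35, a description only, since these libraries chose the genes. Over all genes tested 188 were separated in this way (1.62%), 82 above WT (0.708%) and 106 below (0.915%). The exception among the 35 was *eIF4E3*, at 0 reads in Ho16c. For 28 of the 35 the 10 mutant libraries lay beyond all 4 WT libraries at either stage on the deposited scale. This too is a description only, and the share over all genes was not counted. At an adjusted p under 0.001 there were 6 genes (0.0518%), *Spn42De*, *Pgant6*, *cGlr2*, *CG4306* and *GstE6*, which were higher in mutants, and *sgl*, which was lower. Of the 35, 10 were still called without WT16c and 18 to 20 without any 1 of the other 3 WT libraries, while 23 were still called without Ho16b. Without Ho16c 29 genes were called higher, and without Ho16a 34 were called lower, the 19 and the 16 among them. In each of the 14 fits that left out 1 library, 10 of the genes were called, namely *sgl*, *GstE6*, *Cyp4p2*, *Pgant6*, *CG30002*, *cGlr2*, *Ir40a*, *CG4306*, *CG9360* and *Spn42De*.

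**Figure D1:**
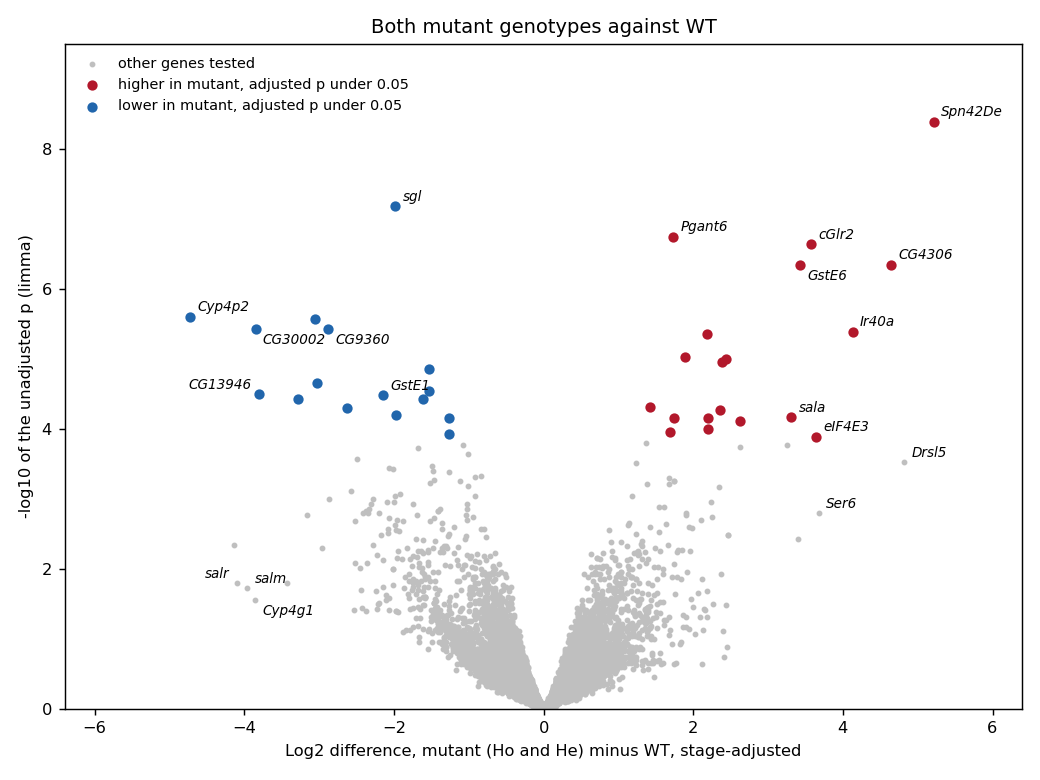
Log2 difference between mutant (Ho and He) and WT embryos, adjusted for stage, against -log10 of the unadjusted limma p for 11584 genes, each point 1 gene. The 19 genes higher and 16 lower at an adjusted p under 0.05 are coloured, *Spn42De* stands at 5.22 and *Cyp4p2* at -4.72, and *salm* and *salr*, low in Ho only, are not among them.

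The largest fitted difference among the called genes, on the log2-like scale, was that of *Spn42De*, a member of the serpins, inhibitors of serine proteases, in a cluster of related genes on chromosome arm 2R. It ranged from 7.79 to 47.2 CPM in mutant libraries, with a median of 18 CPM, against 0, 0, 0.311 and 0.445 CPM in WT. On the deposited scale the mean was 6.18 ± 0.97 in mutants (SD, n = 10) and 0.96 ± 1.2 in WT (SD, n = 4), a difference of 5.22 (standard error 0.45, limma adjusted p = 4.7e-05). The mutant libraries together held 2651 reads of this gene and the WT libraries 14, so that the difference is no measure of a fold. Its cluster neighbours *Spn42Dd* and *Spn42Dc* differed by 1.68 and 0.90 and were not called (limma adjusted p = 0.11 and 0.36), although each mutant library of a stage lay above the WT libraries of that stage for both. Whether reads that fit more than 1 serpin of the cluster were split among them by the counting was not tested.

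*Pgant6*, an enzyme that starts mucin-type O-glycans by adding N-acetylgalactosamine to proteins, had 46.6 to 128 CPM in mutants, with a median of 73.4 CPM, against 16.6, 20.7, 47.9 and 57.2 CPM in WT. Its levels were lower at stage 17 in mutants and WT alike, and within each stage the groups did not overlap (difference 1.73, standard error 0.20, limma adjusted p = 6.5e-04). *sgl* (*sugarless*), the UDP-glucose dehydrogenase that supplies glucuronic acid for heparan sulfate chains, had 104 to 199 CPM in mutants, with a median of 141 CPM, against 358, 405, 442 and 513 CPM in WT. The mean level in mutants was 0.333 times that in WT, and the difference of -1.98 had the smallest adjusted p of the genes that were lower (standard error 0.21, limma adjusted p = 3.8e-04). *EMC8-9*, a subunit of the complex that inserts membrane proteins in the endoplasmic reticulum, had 26.4 to 66.7 CPM, with a median of 33.7 CPM, against 4.10, 10.7, 18.8 and 26.6 CPM in WT and was higher by 1.89 (limma adjusted p = 0.0081). *beta-Man*, the lysosomal beta-mannosidase, was lower in mutants, at 42.1 to 95.1 CPM, against 91.6 to 135 CPM in WT, with a difference of -1.27 (limma adjusted p = 0.027).

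**Figure D2:**
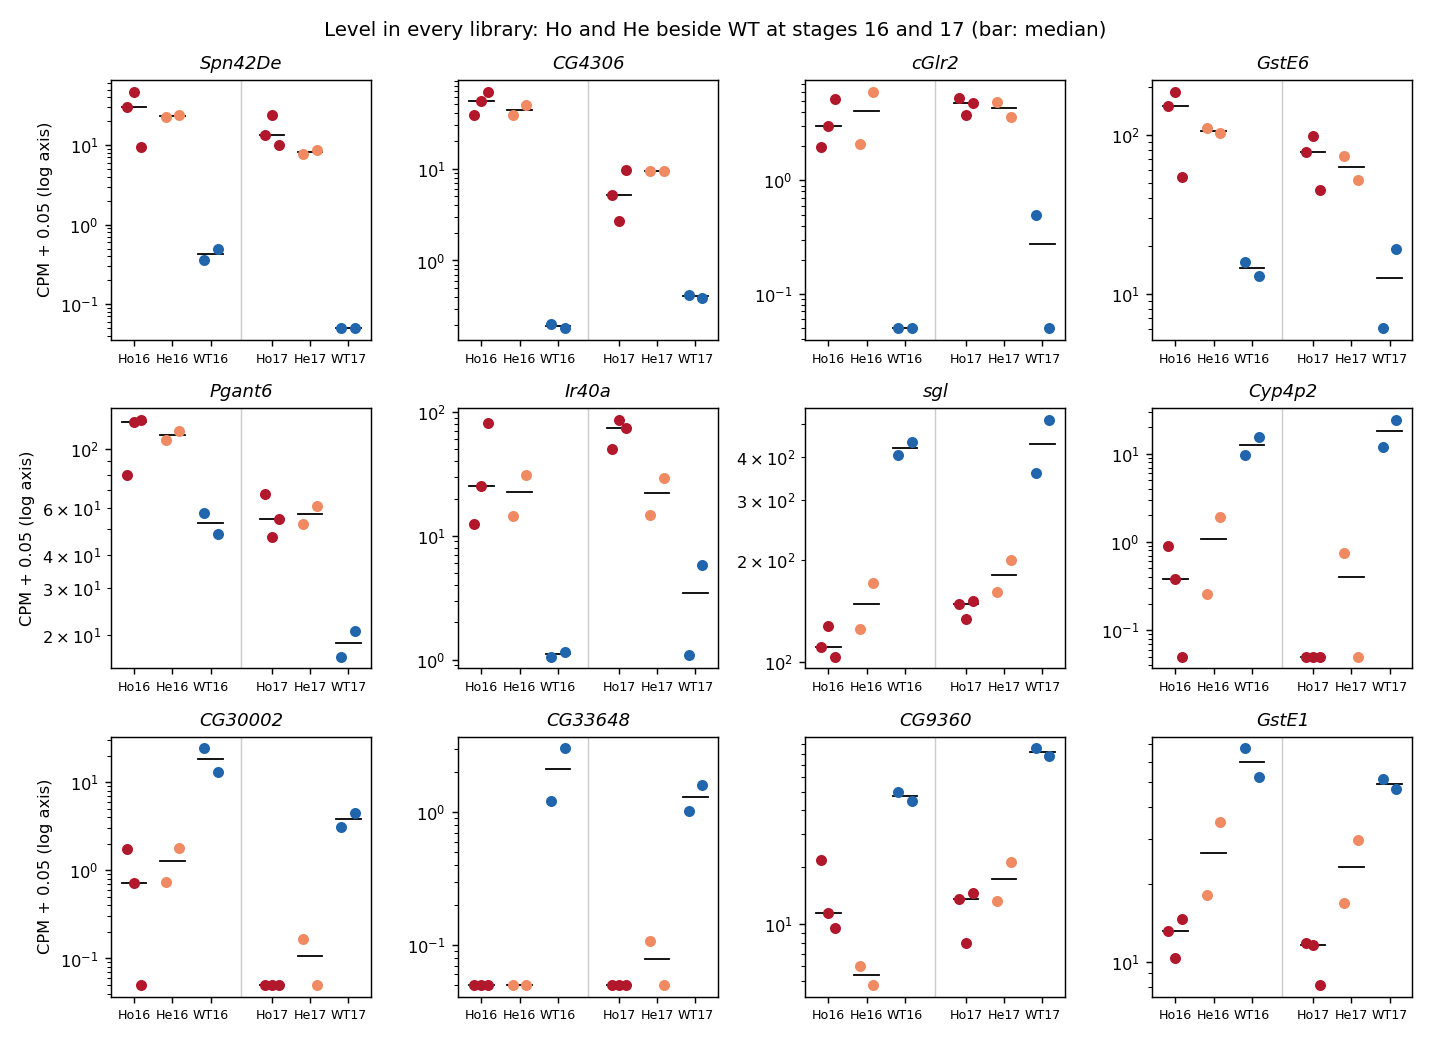
Level of 12 genes in every library, in CPM plus 0.05 on a log axis, with Ho, He and WT at stage 16 and then at stage 17, each point 1 library and each bar a median. The first 6 genes were higher and the last 6 lower in mutants, and in every panel the mutant libraries lie beyond the WT libraries of their stage.

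*cGlr2*, a cGAS-like receptor that makes a cyclic dinucleotide messenger in antiviral signalling, was nearly silent in WT embryos. It had 1.90 to 6.01 CPM in mutants, with a median of 4.23 CPM, against 0 CPM in 3 WT libraries and 0.448 CPM, or 6 reads, in WT17ab (difference 3.57, standard error 0.41, limma adjusted p = 6.5e-04). *pst* (*pastrel*), known for its part in resistance to Drosophila C virus, ran from 38.7 to 255 CPM in mutants, with a median of 102 CPM, against 12.5, 15.1, 79.0 and 108 CPM in WT. Stage 17 libraries were the high ones in both groups, and at either stage all mutant libraries lay above WT (difference 1.74, limma adjusted p = 0.027). *Drsl5*, a drosomycin-like antifungal peptide, had 0.701 to 337 CPM in mutants against 0 to 0.623 CPM in WT, and with a difference of 4.82 it was not called (standard error 1.05, limma adjusted p = 0.080). Its level in mutants was widely spread, with 337, 95 and 13.6 CPM in Ho16 libraries, 22.5 and 12.5 CPM in He16 libraries and at most 8.23 CPM at stage 17.

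Glutathione S-transferases, which couple glutathione to reactive compounds, held a called gene in each direction within a single cluster on 2R. *GstE6* had 44.7 to 187 CPM in mutants, with a median of 87.9 CPM, against 6.04, 12.9, 15.9 and 19.1 CPM in WT, which is 7.06 times the WT mean (difference 3.43, standard error 0.42, limma adjusted p = 8.9e-04). *GstE1* had 8.07 to 34.9 CPM, with a median of 13.9 CPM, against 46.7, 51.2, 52.3 and 67.4 CPM in WT (difference -2.14, standard error 0.38, limma adjusted p = 0.019). The 4 genes between them, *GstE2*, *GstE3*, *GstE4* and *GstE5*, differed by -0.16, -0.22, 0.34 and 1.25 and none was called, the smallest adjusted p being 0.40 for *GstE5*. *Cyp4p2*, of the cytochrome P450 family of oxidising enzymes, was at 0 in 5 mutant libraries, all of them Ho16c or of stage 17, and reached at most 1.85 CPM in He16c. WT libraries had 9.63, 11.9, 15.6 and 24.2 CPM, and the difference was -4.72 (standard error 0.66, limma adjusted p = 0.0039).

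*Ir40a* and *beat-Vb* were higher in mutants and moved together. *Ir40a*, an ionotropic receptor of the antennal sacculus used in humidity sensing, had 12.5 to 86.0 CPM in mutants, with a median of 30.2 CPM, against 1.01, 1.04, 1.11 and 5.74 CPM in WT (difference 4.13, standard error 0.60, limma adjusted p = 0.0042). *beat-Vb*, of the Beat family of immunoglobulin-domain proteins, had 15.2 to 89.8 CPM, with a median of 34.6 CPM, against 4.54, 4.58, 9.40 and 14.1 CPM in WT (difference 2.63, limma adjusted p = 0.029). These genes lie on different chromosomes, *Ir40a* on 2L and *beat-Vb* on 3R, yet *beat-Vb* was the gene whose values followed those of *Ir40a* most closely over the 14 libraries (r = 0.985 after removal of the stage means). The libraries share their groups and normalization, so that this r is a description. Both were highest in Ho16c, Ho17b and Ho17c and lowest among mutants in Ho16a and He16ab. *ZnT35C*, a zinc transporter, had 13.5 to 156 CPM in mutants against 5.75 to 28.1 CPM in WT and was higher by 2.38 (limma adjusted p = 0.0081). Its levels at stage 16 were 80.6 to 156 CPM in mutants against 17.8 and 28.1 CPM in WT.

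*sala*, which lies beside *salm* on 2L, was the called gene of the *spalt* locus. It had 4.35 to 117 CPM in mutants, with a median of 22.5 CPM, against 0, 1.27, 8.39 and 10.4 CPM in WT (difference 3.31, standard error 0.62, limma adjusted p = 0.027). Within each stage every mutant library lay above WT, while across stages the groups overlapped, since Ho17b and He17ab, at 4.35 and 4.85 CPM, had less than WT at stage 16.

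*Lsp1gamma* and *Prat2* were lower in mutants. *Lsp1gamma*, a larval serum protein that stores amino acids, had 0 to 3.87 CPM in mutants, with a median of 1.96 CPM, against 10.8, 13.0, 19.9 and 30.6 CPM in WT (difference -3.28, standard error 0.58, limma adjusted p = 0.020). *Prat2*, the enzyme of the opening step of purine synthesis, had 57.1 to 166 CPM in mutants, with a median of 101 CPM, against 137, 195, 303 and 333 CPM in WT (difference -1.61, limma adjusted p = 0.020). Levels of *Prat2* overlapped between groups across stages and not within them. *phr*, the photolyase that repairs pyrimidine dimers in light, was higher, with 5.71 to 25.7 CPM against 1.12 to 2.8 CPM in WT (difference 2.44, limma adjusted p = 0.0081).

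For several called genes 1 of the groups was at or close to 0 reads. *CG33648* had 1 read in all mutant libraries together against 131 reads in WT, *CG17470* had 3 against 181, and *CG2104* had 3 against 82. *CG13946* had 33 reads in mutants, in 4 of the libraries, and 695 in WT, and *CG30002* had 62 and 742. In the other direction *eIF4E3*, a paralog of the cap-binding protein eIF4E known from the testis, had 824 reads in mutants and 2 in WT, *CG18266* had 206 and 2, and *CG4306* had 3876 and 18. The fitted differences of these genes, from -3.85 for *CG30002* to 4.64 for *CG4306*, depend on how the scale treats few reads and are no measure of a fold. *CG4306* at stage 16 had 37.9 to 68.9 CPM in mutants against 0.134 and 0.155 CPM in WT, and at stage 17 had 2.62 to 9.60 CPM against 0.345 and 0.373 CPM in WT (limma adjusted p = 8.9e-04).

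The remaining called genes have no role given here apart from their number. *CG30428*, *CG18853*, *CG34035*, *CG6000* and *CG1620* were higher in mutants by 1.42 to 2.20, and *CG9360*, *CG31751*, *CG18858*, *CG31683* and *CG6409* were lower, by -1.27 to -2.88 on the log2 scale. *CG9360* had 4.72 to 21.8 CPM in mutants, with a median of 12.4 CPM, against 45.1, 50.1, 77.2 and 85.1 CPM in WT (limma adjusted p = 0.0042). *CG31683* and *CG18858*, with 1 gene between them on 2L, had medians of 20.7 and 22 CPM in mutants against 49.2 and 50.7 CPM in WT, with a difference of -1.53 each. The gene between, *CG31687*, differed by -0.12 (limma adjusted p = 0.99).

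By chromosome arm, 10 of 2023 tested genes on 2L were called (0.494%), 11 of 2338 on 2R (0.470%), 8 of 2302 on 3L (0.348%), 4 of 2872 on 3R (0.139%) and 1 of 1879 on X (0.0532%). In the annotation, 14 of the called genes overlap another gene, and the share over all genes was not counted. None of the overlapping partners was called, with a smallest limma adjusted p of 0.35. Some partners differed in the direction of the called gene, such as *m* at -1.45 beside *CG9360* and *Prosalpha1R* at 1.30 beside *CG18853*. Others were close to 0 or went the other way, such as *hig* at 0.0 beside *Cyp4p2* and *PIP5K59B* at -0.28 beside *EMC8-9*. The sources do not state strand-specific libraries, and without strand the reads of overlapping genes cannot be told apart.

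None of the 35 genes differed between Ho and He in the fit with 3 genotypes (0 of 35 at an adjusted p under 0.05, limma, and 9 of all genes, 0.0777%). The 35 were chosen by a fit that took Ho and He as 1 group, in which a gap between them counts as scatter, so that genes with a wide gap were less likely to be among them and these counts are a description. At an unadjusted p under 0.05 there were 5, which were *GstE1*, *CG31751*, *beat-Vb*, *Ir40a* and *sala*, against 5.98% of all genes. All 5 were farther from WT in Ho. Of the 35, 26 were farther from WT in Ho than in He, against 63.4% of all genes. For *GstE1* the Ho minus He difference was -1.07 (95% confidence interval -1.75 to -0.39, unadjusted p = 0.0043), with 8.07 to 14.6 CPM in Ho libraries, 16.9 to 34.9 CPM in He libraries and at least 46.7 CPM in WT. For *Ir40a* it was 1.5 (interval 0.31 to 2.70), and for *CG31751* -1.02 (interval -1.69 to -0.34). Over the 35 the Ho minus He difference had a median size of 0.39, and the median half-width of its interval was 0.97, so that differences of that size between Ho and He were not detectable here. For *Pgant6* the interval was narrow, from -0.37 to 0.55 around 0.09.

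The differences of Ho and of He from WT use the same WT libraries and are given side by side only. *Spn42De* was higher by 5.47 in Ho and by 4.85 in He (limma adjusted p = 7.1e-05 and 0.0022). *sgl* was lower, at -2.11 in Ho and -1.80 in He, and *CG4306* was at 4.6 and 4.69. In this fit with 3 genotypes, Ho against WT gave 62 genes (0.535%) and He against WT 8 (0.0691%), of which 31 and 8 were among the 35. The Ho calls were 23 higher (0.199%) and 39 lower (0.337%), and the He calls 6 higher (0.0518%) and 2 lower (0.0173%). Each genotype fitted without the other gave 13 higher (0.112%) and 21 lower (0.181%) for the 6 Ho libraries against WT and 14 higher (0.121%) and 19 lower (0.164%) for the 4 He libraries against WT. These were 34 genes (0.294%) for Ho and 33 (0.285%) for He, and 19 and 21 of them were among the 35. The smaller number of He calls in the fit with 3 genotypes was thus not seen when each was fitted on its own.

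**Figure D3:**
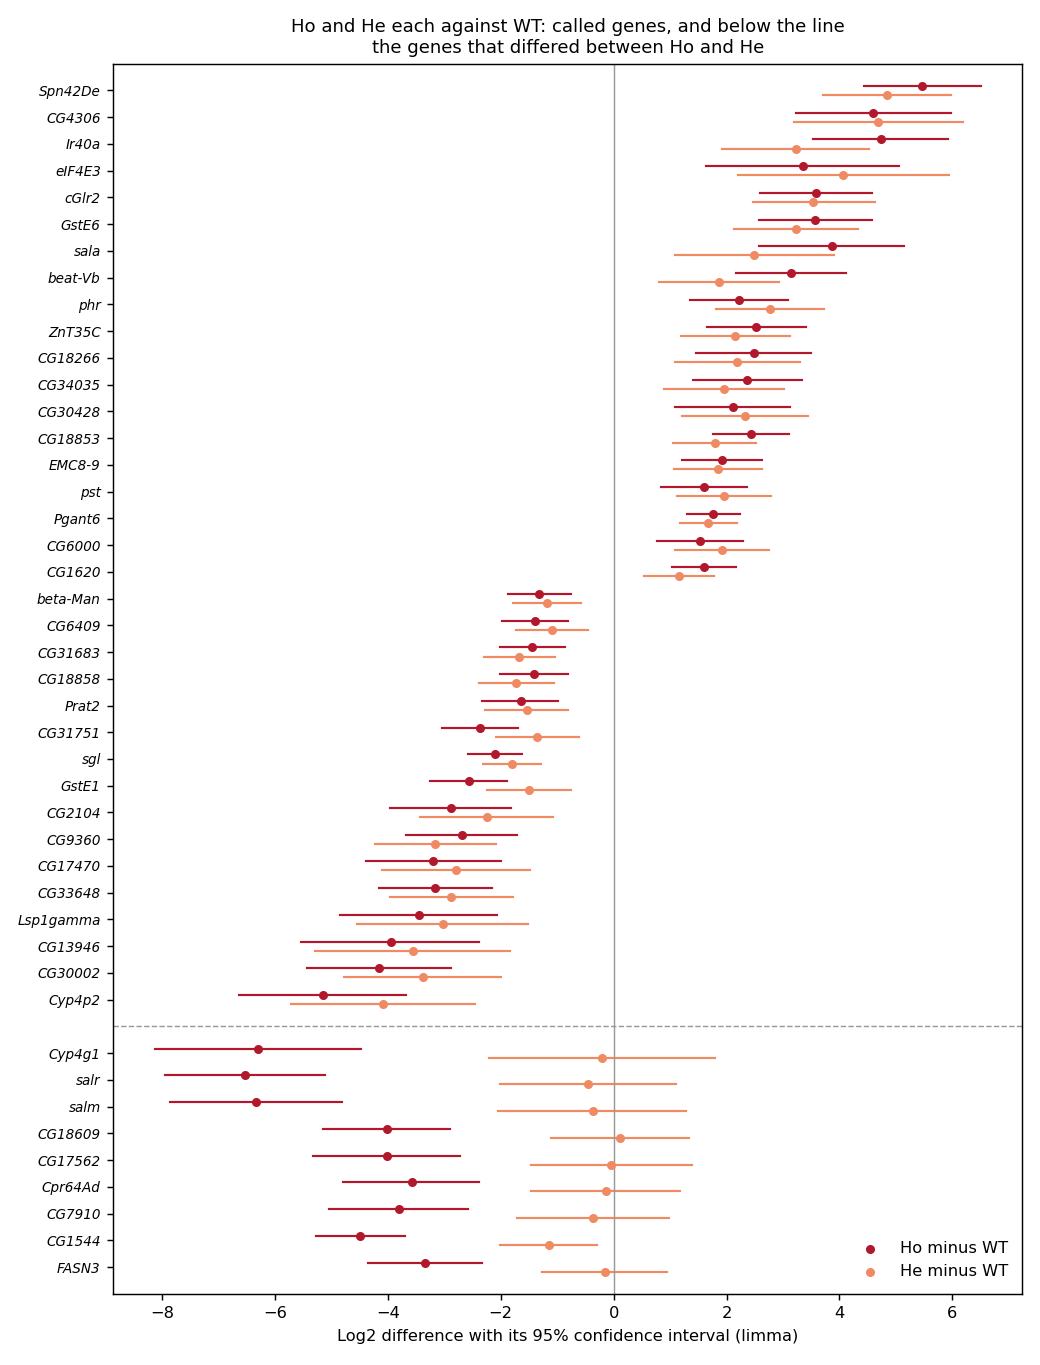
Log2 difference from WT with its 95% confidence interval for Ho and for He, from 1 limma fit, with the 35 called genes above the dashed line and the 9 genes that differed between Ho and He below it. Among the 35, Ho values reach 5.47 and He values 4.85 for *Spn42De*, while below the line the Ho values run from -6.53 to -3.34 and the He values from -1.15 to 0.11.

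The 9 genes that differed between Ho and He were all lower in Ho, and none was among the 35. They were *salm* and *salr*, *Cyp4g1* and *FASN3*, which serve hydrocarbon synthesis in oenocytes, the cuticle protein gene *Cpr64Ad*, and *CG1544*, *CG18609*, *CG17562* and *CG7910*. *Cyp4g1* had 0 to 19.2 CPM in Ho libraries against 101, 112, 135 and 146 CPM in He and 122, 129, 139 and 146 CPM in WT. Ho minus He was -6.10 for *Cyp4g1* (95% confidence interval -7.92 to -4.27, limma adjusted p = 0.0089), -6.07 for *salr* and -5.97 for *salm*. No gene was higher in Ho than in He at the threshold in limma, and at an unadjusted p under 0.05 there were 293 higher (2.53%) and 400 lower (3.45%). *CG1544* lay between, with 1.32 to 14.8 CPM in Ho, 39.8 to 58.1 CPM in He and 63.8 to 133 CPM in WT.

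The 35 genes had the same direction at both stages, which the choice of the genes over both stages favours. Over all 11584 genes the difference at stage 16 and that at stage 17 were weakly related (Pearson r = 0.323, Spearman rho = 0.253, across genes, which are not independent replicates), and 58.8% of genes had the same sign. Of 19 genes with an unadjusted p under 0.001 at stage 16, 16 had the same sign at stage 17 and 10 of these also an unadjusted p under 0.05 there, which 7.93% of all genes reached. Of 46 genes chosen at stage 17, 41 had the same sign at stage 16 and 17 of these an unadjusted p under 0.05, which 1.85% of all genes reached. The 3 genes chosen at stage 16 with the opposite sign at stage 17 were *CG11889*, *CG11891* and *SPH93*. The difference itself changed between stages for 1 gene of all those tested (0.00863%, limma interaction term), *Ser6*, and for none of the 35 at an adjusted p under 0.05, while 2 of the 35, *CG4306* and *CG34035*, had an unadjusted p under 0.05, against 1.19% of all genes.

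*Ser6*, a serine protease gene, had no reads in any WT library. At stage 17 it had 30.3, 33.5 and 48.8 CPM in Ho libraries and 11.7 and 24.8 CPM in He libraries, between 203 and 930 reads each, and at stage 16 a single read in He16ab. The stage 17 mean of 29.8 CPM was at least 364-fold higher than the 0.082 CPM that 3 reads over both WT17 libraries would give. The interaction was 6.90 on the log2 scale (95% confidence interval 4.98 to 8.83, limma adjusted p = 0.018), and *Ser6* was not called in 8 of the 14 fits without 1 library.

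**Figure D4:**
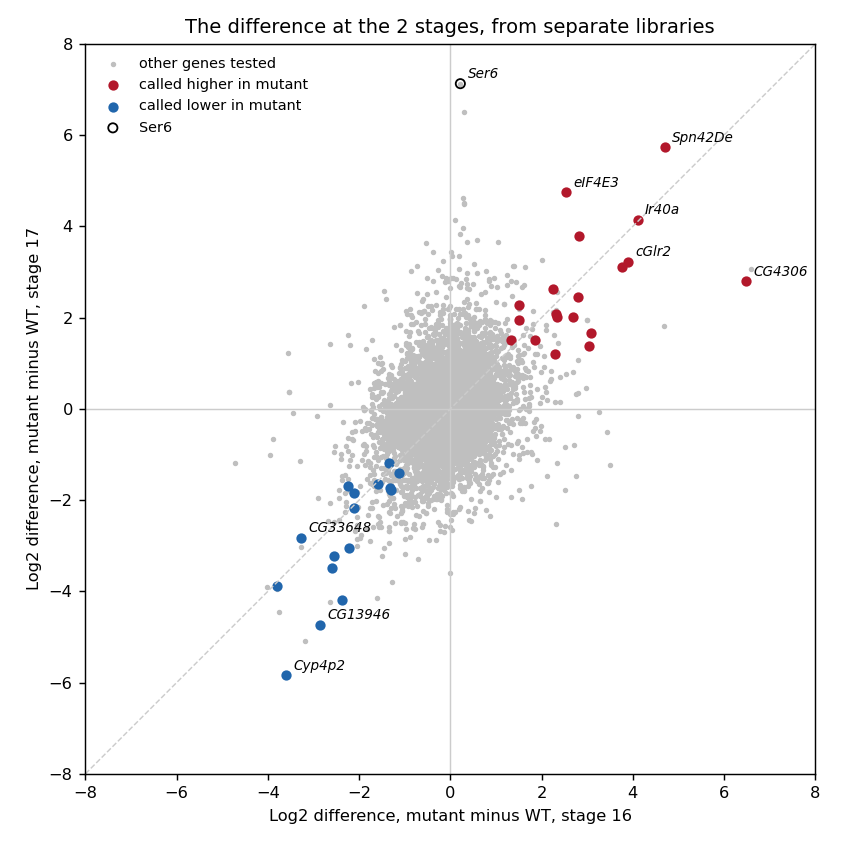
Log2 difference between mutant and WT at stage 17 against that at stage 16 for all genes tested, each point 1 gene and the dashed line equality. The 35 called genes lie in the upper right and lower left quadrants, which their choice over both stages favours. *Ser6* stands alone near the vertical axis at 0.22 and 7.13.

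Called members of the gene families and cell type marker lists are given beside the share of all genes tested that were called, 0.302%. Of 36 lists, 6 held a called gene and 30 held none (limma, with 21 members higher and 25 lower at an unadjusted p under 0.05 among 643 tested, where 2.68% and 3.71% of all genes were). Of 19 serpins 1 was called, with a list median of 0.11, and 5 were higher and none lower at an unadjusted p under 0.05, *Spn42De*, *Spn42Dd*, *Spn42Dc*, *Spn28Dc* and *Spn88Ea*. For 4 of the serpins the mutant libraries of each stage lay above WT, as for 0.708% of all genes. Of 35 glutathione S-transferases 2 were called, with a median of -0.16, of 76 cytochrome P450 genes 1, with a median of -0.11, and of 59 chemosensory receptors 1, with a median of -0.12. The median of all genes tested was -0.04. Gut serine proteases of the Jonah and trypsin types had a median of 0.88 with 7 of 29 higher at an unadjusted p under 0.05 (2.68% of all genes) and none called. Their summed level spread from 28.9 to 4107 CPM in mutants and from 20.3 to 499 CPM in WT, so that the groups overlapped. The list of mitochondrially encoded genes took in 9 of the 13 tested on that chromosome. These were the ND and ATP genes, without those of cytochrome oxidase and cytochrome b. The 9 had a median of 0.85 with none at an unadjusted p under 0.05, at a summed 47.1 to 2747 CPM in mutants and 25.5 to 489 CPM in WT. Cytoplasmic ribosomal proteins had a median of 0.05 over 89 genes.

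Markers of cell types were present in all groups. The summed level of 12 muscle markers was 19896 to 49779 CPM in mutants and 27816 to 52688 CPM in WT, and that of 12 neuron markers 293 to 2981 CPM in mutants and 1137 to 2298 CPM in WT, with no list marker of either at 0 throughout a group. Of 7 fat body markers *Lsp1gamma* was called. *Adh* and *Fbp1* had unadjusted limma p of 0.0015 and 0.0046 at differences of -1.41 and -2.28. Over all genes 3.71% were lower at an unadjusted p under 0.05. The remaining markers went both ways, with *Apoltp* at -0.48, *apolpp* at -0.28, *Fbp2* at 0.64 and *Lsp2* at 0.94, and the list median was -0.48. The summed fat body level was 1213 to 8044 CPM in mutants and 2354 to 5185 CPM in WT, and its part in the *Lsp1gamma* difference was not tested. Of 8 oenocyte markers none was called, and 4 were lower at an unadjusted p under 0.05 (3.71% of all genes), *FASN2*, *FarO*, *FASN3* and *Cyp4g1*, with a summed level of 121 to 598 CPM in Ho, 375 to 664 CPM in He and 369 to 818 CPM in WT. Of 12 hemocyte markers *PPO1*, *PPO2* and *vkg* were lower at an unadjusted p under 0.05, as were 3.71% of all genes (differences -1.35, -1.28 and -0.67), and none was called. The list median was -0.38, with *lz*, *srp* and *Pxn* higher, at 0.50, 0.16 and 0.12. The summed hemocyte level overlapped, at 3057 to 9776 CPM in mutants and 5589 to 12415 CPM in WT.

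**Figure D5:**
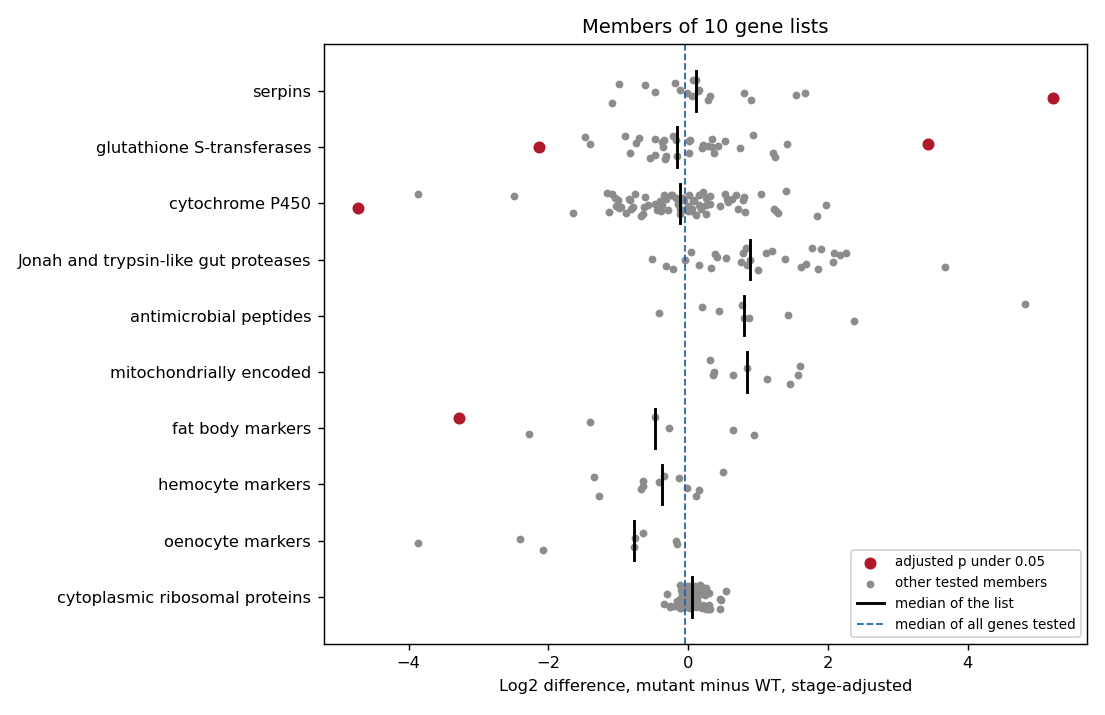
Log2 difference between mutant and WT for the members of 10 gene lists, each point 1 gene, with the median of each list as a bar and that of all genes tested as a dashed line. Called members are in red, such as *Spn42De* at 5.22 among serpins with a median of 0.11, and members that were not called can lie nearly as far out, such as *Cyp4g1* at -3.86 beside the called *Cyp4p2* at -4.72.

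The fathers of He embryos were *white*-, and the level of the eye pigment transporter gene *white* (*w*) divided the mutant libraries by experiment. The 4 mutant libraries of experiment c had 0, 0, 0 and 0.370 CPM. Those of experiments a and b had 68.7 and 34.1 CPM in Ho and 11.7 CPM in He at stage 16. At stage 17 they had 0.863 and 1.57 CPM in Ho and 3.46 CPM in He, so that the gap between experiments was small there. WT had 35.8 and 38.7 CPM at stage 16 and 13.9 and 18.3 CPM at stage 17. The difference over all libraries was -3.43, with an unadjusted p of 0.016, and was not called (limma adjusted p = 0.57). *w* was singled out after its values were seen. The part of the experiments in other differences was examined only by the fits within them and by the fit with a replicate block. Within experiment c alone (6 libraries) all 35 genes had the direction of the full comparison and 34 an unadjusted p under 0.05, with none called in limma, where 367 genes were higher and 423 lower at an unadjusted p under 0.05. Within experiments a and b alone (8 libraries) all 35 had the same direction and an unadjusted p under 0.05. Over all genes 220 were higher and 228 lower at that threshold. Called there were 4 genes higher and 1 lower, of which *Spn42De* and *GstE6* were among the 35 (limma adjusted p = 0.0055 each). These subsets contain the libraries that chose the genes.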

How the data were processed

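Poly-A RNA of 14 embryo pools was sequenced, and the authors used Bowtie to align them to FlyBase r5.22, kept the best alignment, counted them on genes with Genominator and normalized them with DESeq (versions not given in the sources used here). The deposited table holds 1 value for each of 13781 genes and each library, which the authors made from the size-factor normalized counts by a variance-stabilizing transformation to a log2-like scale. Because these log2 values step along 1 curve, whole reads were recovered from them (99.8% of 158533 values above that of 0 reads within 0.05 of a whole read, values above about 13028 reads being approximate) and were used for CPM, filters and depth. The deposited values were fitted with limma 3.58.1 in R 4.3.3 on stage and mutant (Ho or He), with a variance trend (degrees of freedom 11 residual, 4.89 prior), and p-values were adjusted after Benjamini-Hochberg over 11584 genes. Genes were kept with 10 or more reads, scaled to the median library, in 2 or more libraries, and 15 or more in total. Each library counted once, so Ho weighed more than He. Further fits used the product of stage and mutant, and a genotype of 3 levels. The plan allowed for counts, but the values were log2, so limma was used. On simulated reads for 200 changed genes among 11584 the fit was tested before use.

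Samples were grouped by their titles. The alternatives were an adjusted p under 0.001, no filter, pseudocounts of 1 and 0.1, voom, sample quality weights, quantile normalization, equal weight of condition means, a replicate block, and fits to subsets of libraries. The fits without Ho16a and Ho16c and within experiments a and b were chosen after seeing the data. The comparison, the gene lists and the named genes were chosen with earlier results of these data known. Named were called genes without overlap within stages and with at least 10 CPM in the higher group mean, up to 12 per direction, with called list members, called neighbours, *salm*, *salr*, *CG4306* and *Ser6*. The other 11 called genes, *Drsl5*, *w* and further list members were named after their values were seen. Symbols, arms and neighbours came from RefSeq Release 6, which matched 13647 of 13781 genes, and no coordinates are given because the authors used an older release. Summaries and figures were made with Python 3.11.15, numpy 2.4.6, pandas 2.3.3 and matplotlib 3.10.9. Sequences were not used here.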

Additional observations from a re-analysis of the deposited data

Results flagged for a closer look

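In 8 of 70 sets of 5 mutant libraries of a stage, examined for the 35 called genes, 1 library stood apart on the log2 scale. Chance sets 1 apart in about 1 of 20 for continuous values of a single group. The sets here join Ho and He and hold ties at 0 reads, so that 8 of 70 cannot be set against that rate. In 7 of the 8 the other 4 libraries were at 0 reads (-0.04), so that a few reads made the gap. These were *CG13946* in Ho16a at 2.58, *CG17470* in He16ab at 1.6, *CG2104* in He16ab at 1.08 and in He17ab at 1.40, and at stage 17 in He17ab *Cyp4p2* at 2.50, *CG30002* at 1.40 and *CG33648* at 1.09. Thus 6 of the 7 fell in the He libraries that group experiments a and b. The eighth was *eIF4E3* in Ho16c, at -0.04, where the other mutant libraries of stage 16 had 3.70 to 4.22.

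The difference of *Ser6* from WT was larger at stage 17 than at stage 16 by 6.90 on the log2 scale. Ho differed from He, on the same scale, by -6.10 for *Cyp4g1*, -6.07 for *salr*, -5.97 for *salm*, -4.13 for *CG18609*, -3.98 for *CG17562*, -3.45 for *Cpr64Ad*, -3.44 for *CG7910*, -3.34 for *CG1544* and -3.18 for *FASN3*.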

How the results depend on the processing

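All 35 genes kept their direction under every alternative. Calls higher and lower in mutants, 19 and 16 as reported, were 5 and 1 at an adjusted p under 0.001, 182 and 259 with sample quality weights, 1 and 0 at stage 16 alone, 3 and 1 at stage 17 alone, 0 and 0 within experiment c, 4 and 1 within experiments a and b, 35 and 45 without Ho16a and Ho16c, and 30 were lower with voom. At stage 16 alone 119 genes were lower at an unadjusted p under 0.05 (limma). Of the 35, 28 were still called with a pseudocount of 0.1, 28 with condition means weighted equally, 27 with voom, 19 without He (13 higher and 21 lower in all), 21 without Ho (14 and 19 in all) and at least 32 under the other scales and filters. Leaving out 1 library gave 6 to 29 genes higher and 4 to 34 lower.

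Genes lower in Ho than in He, 9 as reported, were 0 at an adjusted p under 0.001, 0 at stage 16 alone (261 at an unadjusted p under 0.05, limma), 50 with quality weights, 23 without Ho16a and Ho16c, and 4 to 16 without 1 library. Genes higher in Ho, 0 as reported, were 1 with no filter, 26 with quality weights, 3 without Ho16a and Ho16c, and 0 to 3 without 1 library. For the interaction, 1 as reported, the number was 0 at an adjusted p under 0.001 and 0 to 1 without 1 library, with 24 to 99 higher at an unadjusted p under 0.05 in the fits with none (limma). *CG18609* was at 0.11 without Ho and at -2.37 over all libraries. The cause of these changes was not tested.

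The letters of the experiments were not taken to pair the libraries in the main fit. The correlation of deviations was positive in all 15 pairs of conditions, from 0.0209 to 0.335, and over 0.1 in 12. These values do not show that libraries of the same letter are independent. With the letter as a replicate block, 34 of the 35 were still called, with 19 higher and 16 lower in all, and 11 genes were lower in Ho than in He. Only 4 libraries are WT, and a count of 0 in Ho16a allows up to 0.634 CPM.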
